A study of Mus musculus with 2 samples.

Results

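The C3 Mgp Igfbp6 cells were a rare mesenchymal population in single-cell RNA-seq of mouse hepatic stellate cell (HSC) preparations. They were chosen by a marker rule: at least 2 unique molecular identifiers (UMIs, each standing for 1 captured mRNA molecule) of at least 4 of the 6 genes C3, Mgp, Igfbp6, Nkain4, Dmkn and Fndc1. The rule found 126 cells among the 16420 barcodes that passed the quality filter, 95 of 9004 in p16-LRTD and 31 of 7416 in p16-Alb-LRTD. There was 1 library per genotype, so a difference between genotypes is a difference between 2 libraries, with no replicate check and no p-value. All mice were male C57BL/6 animals given carbon tetrachloride (CCl4) for 4 weeks, and all received tamoxifen and diphtheria toxin. The p16-LRTD mice carried p16-CreERT2 with the reporter R26-CAG-LSL-RSR-tdTomato-2A-DTR, which also encodes the diphtheria toxin receptor and needs both the Cre and the Dre recombinase to be switched on. The p16-Alb-LRTD mice carried Alb-DreERT2 in addition, with Dre driven by the albumin promoter of hepatocytes, so that the toxin should remove hepatocytes with high p16 in this genotype alone. How many mice were pooled for each library, and their age, were not stated. The cells came from livers perfused with pronase and collagenase and separated on a Nycodenz gradient, which collects vitamin A-storing HSCs, so every share below is a share of what that gradient recovered.

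Mesothelial cells form the thin epithelial sheet on the liver surface, express WT1, mesothelin, uroplakins and keratins, and can give rise to fibroblast-like cells when they lose that epithelial state. Portal and adventitial fibroblasts surround the vessels and bile ducts, lie in a sheath rich in elastin and fibulins, and make collagen independently of HSCs. HSCs themselves sit along the sinusoids, store retinyl esters made by LRAT, and are the main collagen producers of the liver treated with CCl4.

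In the 11149 barcodes of p16-LRTD there were 193746596 UMIs, and in the 8806 of p16-Alb-LRTD 162219167. The C3 Mgp Igfbp6 cells were deeper than the HSCs around them, with medians of 26083 and 34770 UMIs (p16-LRTD first here and in each pair below) against 17008 and 18111. No barcode sequence of theirs occurred in both libraries, although 95 barcode sequences did among all barcodes. The reference HSCs, 7825 and 6617 cells, were the other cells with a UMI of at least 3 of Lrat, Colec11, Reln, Ecm1 and Hgf. Cells with 2 or more Kupffer cell or 2 or more endothelial markers at 2 or more UMIs were kept out of that reference. Kupffer-marked cells (367 and 214) and endothelial-marked cells (624 and 490) were set by a stricter limit, at least 3 markers of the type at 2 or more UMIs. Levels are CPM, the count of a gene per 1000000 UMIs summed over a cell set, and intervals are 95% intervals that cover counting error only.

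Among the 95 cells of p16-LRTD, 18 had at least 2 UMIs of 3 or more of the 5 HSC markers (18.9%, 11.6 to 28.3), against 0 of 31 in p16-Alb-LRTD, which allows a share of up to 11.2%. Kupffer cell or endothelial markers were found in 4 of the 95 cells, 1 of them among the 18, and in 0 of the 31. Barcodes that hold an HSC and a C3 Mgp Igfbp6 cell together and single cells with both programmes cannot be told apart in these counts. Results were therefore also computed on the remaining 74 and 31 cells, called unmixed cells here.

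The markers of the rule are given as a description, because they chose the cells. C3, the central complement protein, is encoded on chromosome 17 from 57203970 to 57228136 (GRCm38, minus strand). Its level per cell ran from 1095 to 15814 CPM in p16-LRTD, with a median of 6165, and from 2939 to 18786 CPM in p16-Alb-LRTD, with a median of 6901. C3 was above 0 in all 126 cells, and the ranges of the 2 genotypes overlapped over most of their length. Mgp encodes matrix Gla protein, an inhibitor of calcification, and had medians of 417 and 620 CPM. Igfbp6, an IGF-binding protein with preference for IGF2, had medians of 800 and 474 CPM. The medians of Nkain4, an interactor of the sodium pump, were 811 and 357 CPM. For Dmkn (dermokine, a secreted epithelial protein) they were 518 and 417 CPM, and for Fndc1, a fibronectin type III protein, 809 and 571 CPM. Mgp was at 0 in 19 and 4 cells, more often than any other marker of the rule.

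**Figure D1:**
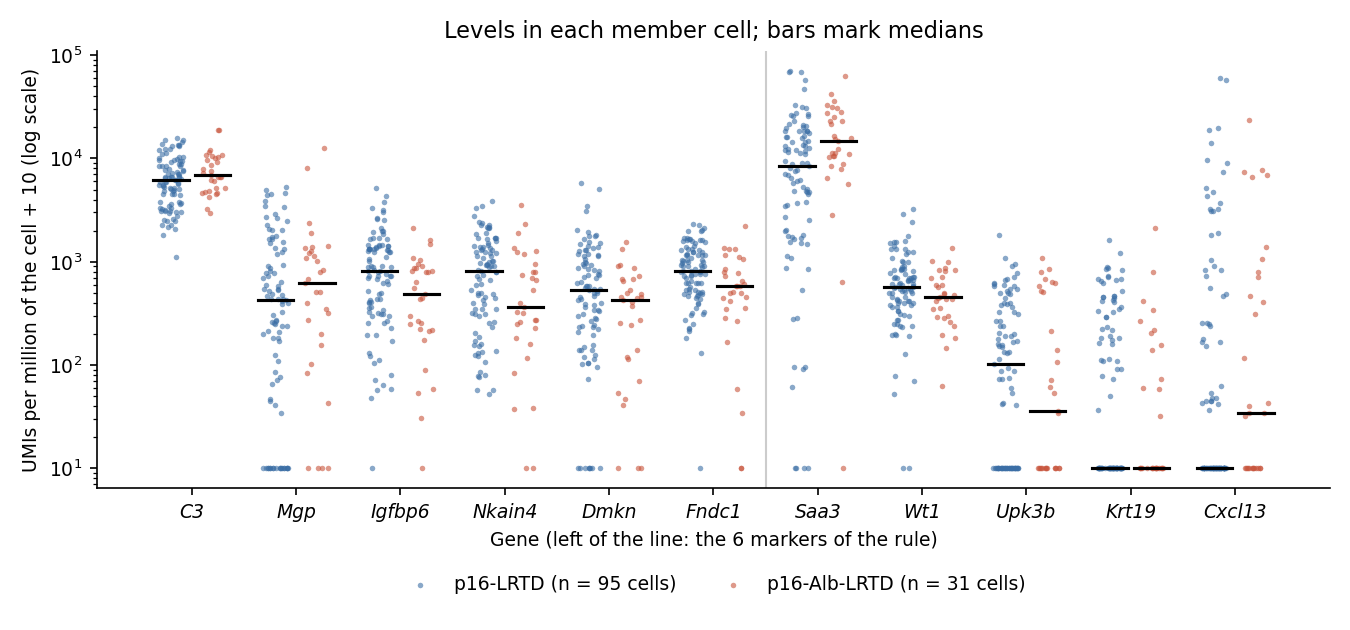
Levels of the 6 markers of the rule and of 5 further genes in each C3 Mgp Igfbp6 cell, as CPM of that cell plus 10 on a log axis, with 95 cells of p16-LRTD in blue and 31 of p16-Alb-LRTD in red. Bars mark medians, points are spread sideways for visibility, and C3 lies in a narrow band in both genotypes, whereas Upk3b, Krt19 and Cxcl13 are at 0 in many cells and high in others.

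The threshold cut through a thinly filled range. Of the p16-LRTD barcodes, 55 had all 6 markers, 35 had 5, 5 had 4, 9 had 3 and 14 had 2, while 8477 had none. In p16-Alb-LRTD the corresponding numbers were 14, 11, 6, 2, 7 and 6939. Just inside the threshold, barcodes with 4 markers had median C3 counts of 76 and 220.5 UMIs. Just outside it, barcodes with 3 markers had medians of 17 and 32 UMIs, a median of 0 UMIs of Nkain4 and a median of all 5 HSC markers.

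Promoter sequences are shown for C3, the leading marker of the rule, and for Saa3 and Cxcl13, which were among the genes with the greatest excess over HSCs. They are the 250 bases before the RefSeq transcription start in GRCm38.p6, printed in the direction of transcription. Capitals mark a match to TTGCNNAA, searched on both strands, a pattern bound by C/EBP factors, which drive acute phase genes in liver.
C3, chr17:57228137-57228386, minus strand: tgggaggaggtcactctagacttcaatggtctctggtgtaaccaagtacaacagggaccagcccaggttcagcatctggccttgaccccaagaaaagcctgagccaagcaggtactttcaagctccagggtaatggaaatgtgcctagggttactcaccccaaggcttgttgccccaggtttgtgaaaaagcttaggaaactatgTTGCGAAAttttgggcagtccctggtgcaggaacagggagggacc
Saa3, chr7:46715677-46715926, minus strand: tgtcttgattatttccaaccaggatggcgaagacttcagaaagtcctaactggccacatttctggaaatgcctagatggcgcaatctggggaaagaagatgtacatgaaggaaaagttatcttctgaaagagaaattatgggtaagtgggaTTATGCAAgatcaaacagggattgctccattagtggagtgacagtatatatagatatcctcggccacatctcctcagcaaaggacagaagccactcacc
Cxcl13, chr5:95956689-95956938, plus strand: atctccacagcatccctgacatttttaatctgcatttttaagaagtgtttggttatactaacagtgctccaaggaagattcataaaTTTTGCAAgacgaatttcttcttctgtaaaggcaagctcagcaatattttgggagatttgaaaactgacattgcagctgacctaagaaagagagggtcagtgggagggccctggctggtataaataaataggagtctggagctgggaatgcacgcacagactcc
The match began or ended 45 bases before the start of C3, 99 bases before that of Saa3 and 164 bases before that of Cxcl13. The RefSeq promoter table used here matched 13 of the 21 genes searched, namely the 6 markers of the rule and the 15 genes highest over HSCs. The pattern was present in 6 of the 13 (C3, Dmkn, Lrrn4, Saa3, Serpinb2 and Cxcl13), and in 10.8% of all 27025 genes with such a window. TGANTCA, the AP-1 pattern, was found in Dmkn, Sprr2b and Serpinb2, and in 7.82% of all genes. GGAATG, the TEAD pattern, was found in Lrrn4, Cxcl13 and Gpm6a, and in 14.4% of all genes. The NF-kB pattern was found in Gjb5 alone, and in 4.71% of all genes. These are letter matches, the genes were picked for their levels, and binding was not measured.

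The label of the cells was then checked against marker lists. At least 3 of 16 mesothelial markers had a UMI in 87 of the 95 cells (91.6%, 84.1 to 96.3) and in 25 of the 31 (80.6%, 62.5 to 92.5), compared with 0.243% and 0.136% of reference HSCs and 0 of 367 and 0 of 214 Kupffer-marked cells. Of the 16 genes of the list, 10 reached 50 CPM, all through the C3 Mgp Igfbp6 cells and none through HSCs, so that their direction followed from this minimum. Wt1, the transcription factor of the mesothelium (chromosome 2, 105126529 to 105173616), was detected in 93 and 31 cells and reached 696 and 506 CPM, against 45.3 and 44.2 CPM in HSCs. It was not confined to them. After thinning to 5000 UMIs, a Wt1 UMI was present in 88.4% and 87.1% of these cells and in 8.22% and 9.16% of HSCs. Upk3b, a uroplakin of the mesothelial surface (chromosome 5, 136038496 to 136046487), was found in 59 and 17 cells at 195 and 190 CPM over the set, against 0.197 and 0.208 CPM in HSCs. Of all Upk3b UMIs in the filtered libraries, 94.1% and 87.3% lay in these few cells. Krt19, a simple-epithelium keratin, was at 214 and 146 CPM, with 98.3% and 95.7% of the filtered UMIs of its library, but only 47 and 13 cells held it. Msln, which encodes mesothelin, was at 39.9 and 72.2 CPM in 25 and 10 cells. Part of the cells thus had no UMI of these genes, which at this depth does not show that they lack them, since thinning to 5000 UMIs took the share with a Upk3b UMI from 62.1% to 38.9% in p16-LRTD. The number of mesothelial markers per cell had a median of 8 in both libraries and ran from 0 to 16 and from 1 to 16.

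Fibroblast markers were carried by every cell. All 95 and all 31 had a UMI of at least 3 of 16 portal and adventitial fibroblast markers, but so did 37.4% and 30.4% of reference HSCs and 7.63% and 4.67% of Kupffer-marked cells. This list therefore separated the cells less sharply. Of its 10 genes that reached 50 CPM, 8 were higher than in HSCs in both libraries and 1 was lower. Fbln2, an elastic fibre protein, was at 378 and 552 CPM against 1.65 and 0.544 CPM. Cd34, a surface sialomucin of adventitial fibroblasts, was at 370 and 241 CPM against 11.6 and 5.14 CPM. Clec3b, which encodes tetranectin, was at 148 and 91.2 CPM against 0.493 and 0.232 CPM. Dpt (dermatopontin) did not separate the sets, with 32.5 and 98.8 CPM in 24 and 10 cells and 63.9 and 30.5 CPM in HSCs. Gli1 had 0 UMIs in all 126 cells, and Pi16 had 20 UMIs in p16-LRTD and 0 in p16-Alb-LRTD.

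HSC genes were low. The 13 HSC markers summed to 1598 and 424 CPM, against 17370 and 17568 CPM in reference HSCs, and all 13 were lower in both libraries. The reference was chosen by 5 of these markers, whose direction is therefore set by that choice, and the other 8 include Rgs5, Des and Lhx2. Lrat was at 101 and 13.3 CPM, compared with 1300 and 1506 CPM in HSCs and with 237 and 136 CPM in Kupffer-marked cells, a type that should not express it. A UMI of at least 3 of the 5 HSC markers occurred in 39 of 95 (41.1%, 31.1 to 51.6) and 17 of 31 cells (54.8%, 36.0 to 72.7). The shares of Kupffer-marked cells were 64.0% and 62.6%, above the interval in p16-LRTD and inside it in p16-Alb-LRTD. The lymphocyte list had 0 UMIs and the hepatocyte list summed to 11.9 and 12.4 CPM. The cholangiocyte list summed to 51.8 and 105 CPM, against 12.3 and 13.6 CPM in HSCs, nearly all of it Sox9 (34.1 and 62.7 CPM) and Spp1 (17.3 and 38.0 CPM). Epcam had a UMI in 0 and 1 cells, and Krt19 is also a keratin of cholangiocytes. The part of other cells' RNA in the low values was not tested. By these markers the set held cells with a mesothelial-like profile and cells with fibroblast markers and few or no mesothelial ones detected, as its label allows.

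**Figure D2:**
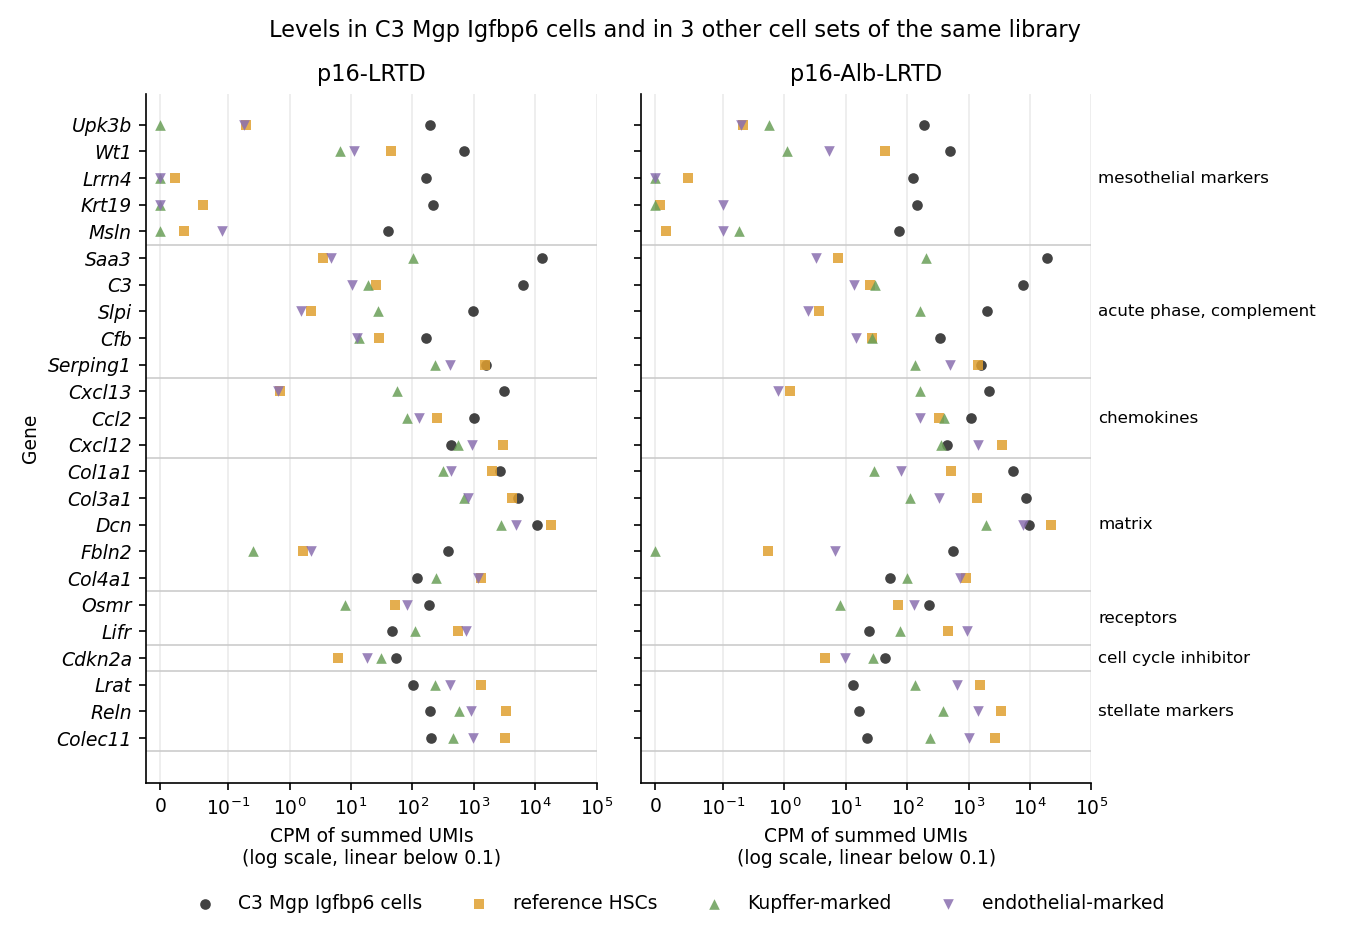
Levels of 24 genes as CPM of summed UMIs (log axis, linear below 0.1) in C3 Mgp Igfbp6 cells (black circles), reference HSCs (orange squares), Kupffer-marked cells (green triangles) and endothelial-marked cells (purple inverted triangles), with p16-LRTD left and p16-Alb-LRTD right. The black circles stand far to the right for the mesothelial, Saa3, Slpi and Cxcl13 rows, and for C3, which chose the cells. They lie near HSCs for Serping1 and to the left of HSCs for Lrat, Reln, Colec11, Lifr and Col4a1.

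Across the transcriptome, 4653 genes reached 50 CPM in the cells or in reference HSCs. At least 2-fold higher in both libraries were 621 of them (13.3%), and at least 2-fold lower were 993 (21.3%). These shares are the background for the counts of the gene lists. A gene low in HSCs was compared only where the C3 Mgp Igfbp6 cells reached the minimum, and the reverse, so the counts describe the lists and support nothing by themselves.

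Saa3, an acute phase serum amyloid A (chromosome 7, 46711998 to 46715700), was at 12741 and 19274 CPM, against 3.48 and 7.37 CPM in HSCs. In single cells Saa3 ran from 0 to 70827 CPM with a median of 8532 in p16-LRTD, and from 0 to 62846 CPM with a median of 14772 in p16-Alb-LRTD. These cells held 94.8% and 87.7% of all Saa3 UMIs in the filtered libraries. Slpi, a secreted inhibitor of leukocyte proteases, was at 984 and 2032 CPM against 2.23 and 3.62 CPM, and Chil1, a chitinase-like protein, at 30.4 and 75.1 CPM with 1 and 0 UMIs among all HSCs. Serpinb2, the plasminogen activator inhibitor 2 gene, was at 337 and 762 CPM against 0.148 and 0.216 CPM in HSCs.

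Of the complement list without C3, 8 genes were at level and 3 were higher than in HSCs in both libraries, with none lower. C1s1, a protease of the classical pathway, was at 1207 and 1050 CPM against 226 and 252 CPM. Cfb, the factor B of the alternative pathway, was at 165 and 344 CPM against 28.7 and 26.8 CPM. Cd55, which protects cells from complement, was at 397 and 258 CPM against 1.24 and 0.968 CPM. Serping1, the inhibitor of C1, was at similar levels in both cell sets, with 1581 and 1612 CPM against 1494 and 1410 CPM.

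Of 9 chemokine and cytokine genes at level, 6 were higher than in HSCs and 2 were lower. Cxcl13, the attractant of B cells (chromosome 5, 95956951 to 95961068), reached 3078 and 2125 CPM against 0.69 and 1.23 CPM in HSCs. It was, however, detected in 44 of 95 and 18 of 31 cells, and the highest cell held 31.4% and 49.9% of its UMIs. Kupffer-marked cells had a Cxcl13 UMI in 19.9% and 30.8% of cells at medians of 20991 and 25357 UMIs, well above the 1.16% and 1.41% of HSCs. Ccl2, which recruits monocytes, was at 1021 and 1078 CPM against 250 and 335 CPM, and Cxcl1, which recruits neutrophils, at 441 and 702 CPM against 34.7 and 65.4 CPM. The alarmin Il33 was at 142 and 213 CPM against 20.3 and 23.4 CPM. Cxcl12, the ligand of CXCR4 and a product of HSCs, was lower, at 419 and 440 CPM against 3008 and 3507 CPM. In unmixed cells it was at 174 and 440 CPM, a genotype log2 ratio of 1.34 in place of 0.07.

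Matrix genes went both ways. In the fibrillar collagen and elastic fibre list, 4 of 13 genes were higher than in HSCs and 3 were lower. Mfap5, a microfibril protein, was at 282 and 160 CPM against 0.31 and 0.112 CPM, and Eln, elastin, at 223 and 171 CPM against 55.4 and 64.7 CPM. Fn1, fibronectin, was at 3608 and 5367 CPM against 922 and 607 CPM, log2 ratios of 1.97 and 3.14. Col14a1, a collagen that coats fibrils, was lower, at 321 and 148 CPM against 2476 and 2165 CPM.

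Basement membrane genes were mostly lower, 6 of 9 at level against 3 higher. Col4a1, the main type IV collagen chain, was at 117 and 52.3 CPM against 1302 and 916 CPM. Lama4, a laminin chain of mesenchymal cells, was higher, at 137 and 99.8 CPM against 3.38 and 1.33 CPM. None of 5 small leucine-rich proteoglycans was higher and 3 were lower. Dcn, decorin, was at 10654 and 9643 CPM in the cells and at 18385 and 22149 CPM in HSCs, log2 ratios of -0.79 and -1.20.

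Of 11 epithelial junction and keratin genes, 5 reached 50 CPM, all through the C3 Mgp Igfbp6 cells and none through HSCs, which fixed their direction. Ezr, ezrin, which anchors microvilli to actin, was at 359 and 323 CPM against 11.7 and 11.1 CPM, and Cldn15, a pore-forming claudin, at 77.3 and 39.9 CPM against 0.788 and 0.648 CPM. Cdh1 (E-cadherin) had 1 UMI in p16-LRTD and 0 in p16-Alb-LRTD. Lgals7, a galectin of stratified epithelia, was at 312 and 140 CPM against 0.0704 and 0.056 CPM. Osr1, a transcription factor of embryonic mesoderm, was at 218 and 120 CPM against 0.113 and 0.024 CPM.

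IGF and retinoid genes differed member by member. Of 7 IGF genes at level, 4 were higher than in HSCs and 3 lower. Igfbp4 was at 924 and 875 CPM against 150 and 162 CPM, whereas Igfbp7 was at 957 and 1073 CPM against 5780 and 5510 CPM. In the retinoid list 2 of 6 genes were higher and 2 lower. The higher ones were Aldh1a2, which makes retinoic acid and had 154 and 128 CPM against 10.3 and 2.70 CPM, and Rdh10, which makes retinal and had 193 and 219 CPM against 29.7 and 26.4 CPM. Lrat, the enzyme that esterifies retinol, was among the lower ones.

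The study concerns the LIFR family, the receptors of the IL-6 type cytokines. The C3 Mgp Igfbp6 cells had little Lifr, 45.7 and 23.8 CPM against 555 and 454 CPM in HSCs, log2 ratios of -3.60 and -4.26. Osmr, the receptor chain for oncostatin M, was higher, at 187 and 230 CPM against 52.7 and 70.3 CPM, log2 ratios of 1.83 and 1.71. Il6st, which encodes the shared gp130 chain, was at 218 and 247 CPM against 524 and 510 CPM. In all, 1 of 7 genes of this axis at level was higher and 2 were lower, and Stat3 was within 2-fold at 329 and 314 CPM against 170 and 209 CPM. The ligands Lif and Osm had at most 7 UMIs in a library, and Il11 had 0.

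The genes lowest against HSCs were nearly absent from the cells. Dach1, a transcription cofactor, was at 9.87 CPM and 0 in the cells against 348 and 333 CPM, where 3 counts correspond to 1.23 and 2.85 CPM. Egfem1 was at 6.58 and 1.90 CPM against 221 and 169 CPM, and P2ry14, a receptor of UDP-glucose, at 4.53 and 0.950 CPM against 149 and 127 CPM. Cacna1c, Cdh18, Clstn2, Sgip1, Akap6, Rbm46 and Galnt14 completed the 10 lowest, each with at most 8 UMIs in a library.

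Cdkn2a, whose p16 product is the basis of the elimination (chromosome 4, 89274471 to 89294653), was examined because its promoter drives the Cre recombinase of both genotypes. Counting at the 3' end does not separate its p16 and p19ARF transcripts. Its level was 53.9 CPM (45.1 to 64.0) and 42.8 CPM (31.2 to 57.2), against 6.09 and 4.62 CPM in HSCs, 30.6 and 27.5 CPM in Kupffer-marked and 18.2 and 9.57 CPM in endothelial-marked cells. A Cdkn2a UMI was present in 41 of 95 and 19 of 31 cells. With every cell thinned to 5000 UMIs the shares were 14.7% (8.30 to 23.5) and 19.4% (7.45 to 37.5), compared with 2.87% and 2.10% of HSCs and 10.8% of Kupffer-marked cells in each library. The interval of the C3 Mgp Igfbp6 cells lay above the HSC share in both libraries and included the Kupffer share. Cdkn1a, the p21 gene, was at 88.4 and 91.2 CPM against 15.8 and 41.6 CPM in HSCs. The tdTomato reporter had 17 and 14 UMIs in all, 6.99 and 13.3 CPM against 3.11 and 5.87 CPM in HSCs. After thinning it was present in 1 of 95 cells (1.05%, 0.0266 to 5.73) against 1.47% of HSCs in p16-LRTD, and in 5 of 31 (16.1%, 5.45 to 33.7) against 2.91% of HSCs and 3.29% of Kupffer-marked cells in p16-Alb-LRTD.

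The cells varied along the number of mesothelial markers. They were divided, unmixed cells only and with limits chosen after the values were seen, into those with 5 or fewer of the 16 markers (23 and 9 cells), with 6 to 9 (28 and 10) and with 10 or more (23 and 12). These are ranges of a score, not cell types, and the levels of the 16 markers across them are fixed by the division. Median depths were 28530, 23726 and 25516 UMIs in p16-LRTD and 36450, 30356 and 36453 UMIs in p16-Alb-LRTD, so depth did not run in the order of the ranges. C3 stayed high throughout, at 4765, 7151 and 8235 CPM for p16-LRTD, and at 5992, 7271 and 9289 CPM in p16-Alb-LRTD. Col1a1, Lum, Cxcl12 and Dpt were higher where few mesothelial markers were present, whereas Cd34 was not, at 202, 413 and 544 CPM and at 144, 185 and 360 CPM. Col1a1, a chain of type I collagen (chromosome 11, 94936224 to 94953042), was at 4056, 2342 and 1939 CPM for p16-LRTD, and at 10624, 4416 and 1693 CPM in p16-Alb-LRTD. Lum, lumican, was at 876, 568 and 294 CPM and at 1302, 715 and 121 CPM. Cxcl12 was at 417, 80.8 and 33.4 CPM and at 1019, 342 and 58.04 CPM, and Dpt at 101, 8.97 and 5.01 CPM and at 304, 12.8 and 2.42 CPM. The gelatinase gene Mmp2 and the neural adhesion gene Ncam1 followed the same order. Ncam1 was at 229, 17.9 and 1.67 CPM and at 589, 195 and 48.4 CPM.

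In the opposite direction, Igfbp5 was at 0, 268 and 663 CPM for p16-LRTD, and at 3.07, 9.58 and 658 CPM in p16-Alb-LRTD. These levels rested on few cells, since Igfbp5 was at 0 in 45 of 74 and 25 of 31 unmixed cells. Ezr was at 101, 395 and 616 CPM and at 70.6, 128 and 670 CPM. Prg4, which encodes the surface lubricant lubricin, was at 6.63, 53.8 and 90.2 CPM and at 9.21, 19.2 and 491 CPM. The sphingomyelinase gene Smpd3 was at 9.94, 44.9 and 170 CPM and at 3.07, 28.7 and 172 CPM. Both genotypes thus showed the same order for these genes, lowest with few and highest with many mesothelial markers. The genes named across the ranges were chosen after their values were seen.

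**Figure D3:**
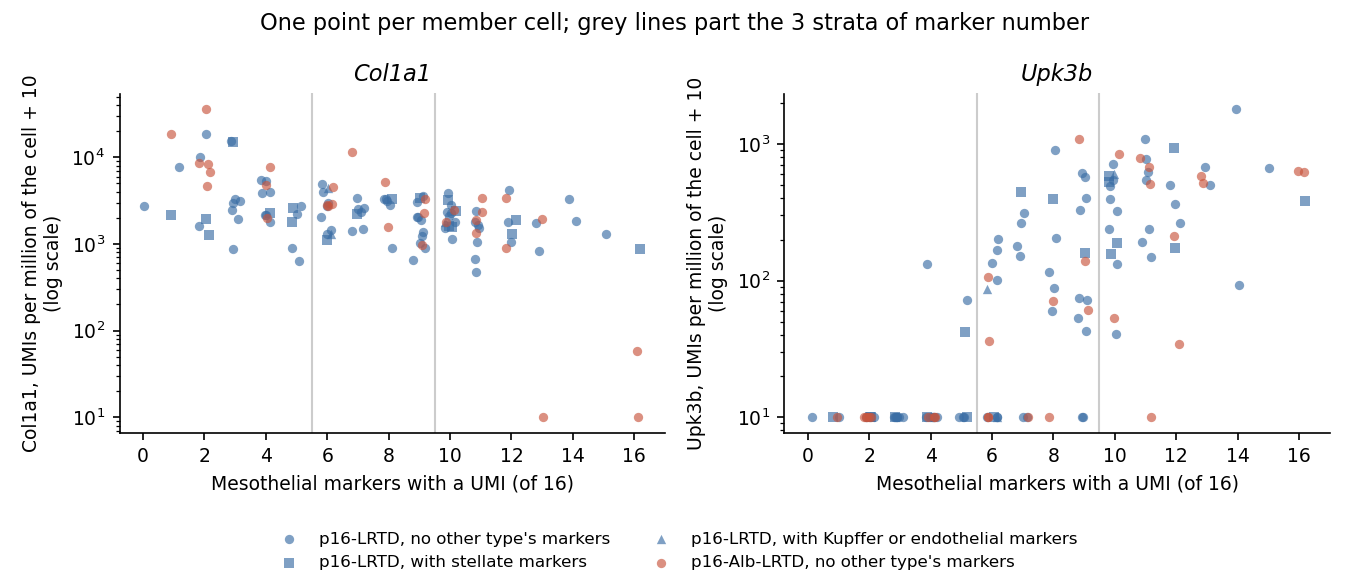
Each C3 Mgp Igfbp6 cell by its number of mesothelial markers with a UMI (of 16, spread sideways slightly) and its level of Col1a1 (left) or Upk3b (right), as CPM of the cell plus 10 on a log axis. Blue is p16-LRTD and red p16-Alb-LRTD, squares and triangles are cells with HSC or with Kupffer or endothelial markers, grey lines part the 3 ranges, the cells highest in Col1a1 have few markers, and Upk3b, itself 1 of the 16, is at 0 in most cells with 5 or fewer.

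Col1a1 was spread unevenly among the cells. It ran from 468 to 18759 CPM per cell in p16-LRTD, with a median of 2132, and from 0 to 36173 CPM in p16-Alb-LRTD, with a median of 2771. Among unmixed cells, 6 of 74 and 8 of 31 were at 5000 CPM or more, a limit also set after the values were seen, all 6 of the former and 6 of the latter with 5 or fewer mesothelial markers. In these cells, against the other unmixed cells, Timp1, the inhibitor of matrix metalloproteinases, was at 1194 against 399 CPM and 1897 against 687 CPM. Lox, the collagen cross-linking enzyme, was at 278 against 66.1 CPM and 447 against 159 CPM. Acta2 had no common direction, with 111 against 67.3 CPM and 63.9 against 171 CPM. Upk3b was at 0 against 218 CPM and 6.73 against 262 CPM, and Krt19 at 0 against 246 CPM and 0 against 204 CPM. Wt1 was nevertheless present in the collagen-high cells, at 346 against 782 CPM and 511 against 505 CPM.

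Cxcl13 was also spread unevenly. It was at 5000 CPM or more in 8 of 74 and 5 of 31 unmixed cells, of which 7 had 5 or fewer mesothelial markers and 1 had 6 to 9 in p16-LRTD, while all 5 had 6 to 9 in p16-Alb-LRTD. In each library 1 of these cells was also at 5000 CPM or more of Col1a1. Ccl2 was at 2955 against 906 CPM and 2939 against 697 CPM in these cells against the rest, Ccl7 at 697 against 265 CPM and 1492 against 322 CPM, and Cxcl1 at 961 against 397 CPM and 1319 against 576 CPM. Saa3 was at 39586 against 9726 CPM and 27493 against 17590 CPM. Slpi had no common direction, with 3912 against 713 CPM and 1933 against 2052 CPM. Dpt had 0 UMIs in the Cxcl13-high cells of both genotypes.

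The genotype comparison asks what differed in these cells when hepatocytes with high p16 had been eliminated. They made up 1.06% (0.854 to 1.29) of filtered barcodes in p16-LRTD and 0.418% (0.284 to 0.593) in p16-Alb-LRTD. Part of this difference lay in the filter. The upper limits of 7000 genes and 50000 UMIs removed 15 of 119 cells that met the marker rule in p16-LRTD (12.6%) and 21 of 56 in p16-Alb-LRTD (37.5%), compared with 3.73% and 3.17% of all barcodes. Before any filter the shares were 1.07% (0.885 to 1.28) and 0.636% (0.481 to 0.825) of all barcodes. Whether the shares differ between animals was not measured, since each genotype was 1 library.

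Over the cells as a whole, 3608 genes reached 50 CPM in a library. In p16-Alb-LRTD 88 of them were at least 2-fold higher (2.44%) and 112 at least 2-fold lower (3.1%). The median log2 ratio was -0.08, and in reference HSCs 1.15% and 0.628% of 3822 genes passed the same limits.

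Lower genes were led by those of HSCs. Of 10 HSC markers at level, 8 were at least 2-fold lower, with a median log2 ratio of -2.76. The summed HSC list came to 1598 and 424 CPM, with Ngfr at 0 in p16-Alb-LRTD, and the summed Kupffer cell list 211 and 32.3 CPM. Reln was at 195 and 16.2 CPM (log2 -3.59, -4.39 to -2.90), Rgs5 at 207 and 19.95 CPM (-3.37, -4.08 to -2.74) and Colec11 at 201 and 21.9 CPM (-3.20, -3.87 to -2.60). In unmixed cells the ratios were 0.16, 0.05 and -0.14, and the median of the list was -0.02. The 10 lowest genes over all cells, among them Robo2, Cped1, Nrxn3, Masp1, Reln, Rgs5, Fcna, Apoc1 and Colec11, were all higher in HSCs than in these cells in both libraries, and without the mixed cells 67 genes in place of 112 were at least 2-fold lower.

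The fibrillar collagen genes Col1a1 and Col3a1 had log2 ratios above 0 but short of 2-fold in the C3 Mgp Igfbp6 cells and were more than 2-fold lower in p16-Alb-LRTD in HSCs. Of 13 genes of the collagen and elastic fibre list, 0 were at least 2-fold higher and 1 at least 2-fold lower, while 8 were above 0 and 5 below, with a median log2 ratio of 0.23, against -0.91 in HSCs. Col1a1 was at 2708 and 5268 CPM (log2 0.96, 0.91 to 1.01), against 2007 and 509 CPM in HSCs (log2 -1.98). In unmixed cells its ratio was 0.93. Col3a1 was at 5255 and 8643 CPM (log2 0.72, against -1.61 in HSCs). Of 11 activation genes at level, 4 were at least 2-fold higher and 9 were above 0, with a median of 0.72, while the median in HSCs was -1.23. Timp1 was at 395 and 1029 CPM (log2 1.38, 1.25 to 1.51) and Lox at 78.2 and 240 CPM (1.62, 1.34 to 1.90), with ratios of -1.51 and -1.19 in HSCs. The other two were the contractile genes Acta2, at 65.4 and 141 CPM, and Tagln, at 15.2 and 90.3 CPM, of which a single p16-Alb-LRTD cell held 52.7% and 90.5% of the UMIs. The difference between the cell sets was not tested.

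Single cells weighed on the Col1a1 values. Median cells had 2132 and 2771 CPM of Col1a1, and a single p16-Alb-LRTD cell held 23.8% of the Col1a1 UMIs of its set. Among unmixed cells below 5000 CPM of Col1a1, its log2 ratio was 0.12, a value lowered by the choice of cells itself, since 6 of 74 and 8 of 31 were left out for their Col1a1. By number of mesothelial markers, the ratio was 1.39 with 5 or fewer, 0.92 with 6 to 9 and -0.20 with 10 or more. Timp1 followed the same order with 1.61, 1.51 and -0.03, and Lox with 1.94, 1.28 and 0.61. In p16-Alb-LRTD, 2 cells had 0 UMIs of Col1a1.

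**Figure D4:**
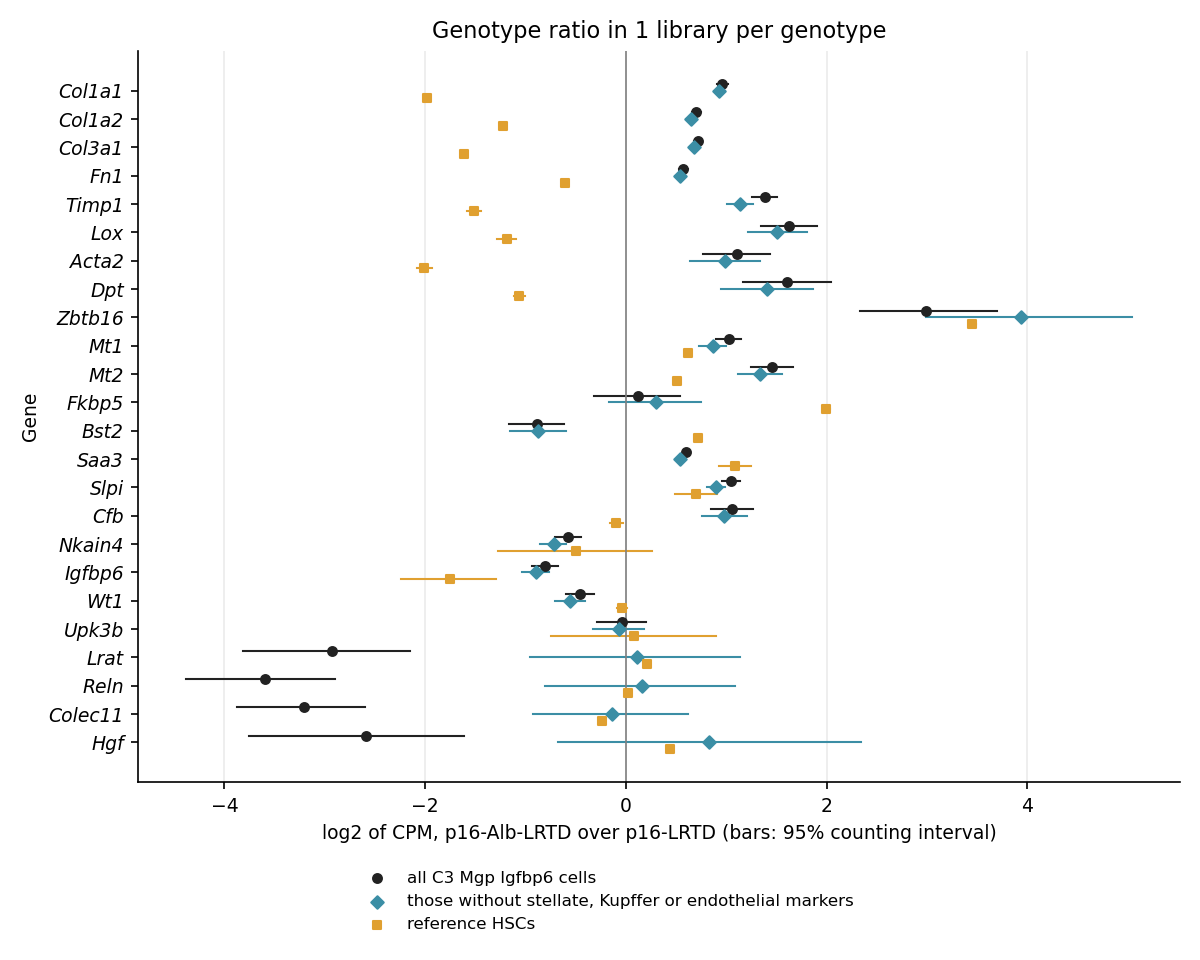
Log2 ratio of CPM in p16-Alb-LRTD over p16-LRTD for 24 genes, with 95% counting intervals as bars, over all C3 Mgp Igfbp6 cells (black circles), the unmixed cells (blue diamonds) and reference HSCs (orange squares). Of the plotted genes, Col1a1, Col1a2, Col3a1, Fn1, Timp1, Lox and Acta2 lie right of 0 in the cells and left of 0 in HSCs, and Lrat, Reln and Hgf lie left of 0 only when mixed cells are included.

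Glucocorticoid targets had median ratios above 0 in both cell sets. All 6 genes of that list at level were above 0 in the C3 Mgp Igfbp6 cells and 3 were at least 2-fold higher, with a median of 0.99, against 0.81 in HSCs. Zbtb16, a zinc finger factor induced by glucocorticoids (chromosome 9, 48654297 to 48836222), was at 10.3 and 81.7 CPM (log2 2.99, 2.33 to 3.69). It was found in 13 of 95 and 16 of 31 cells, and its ratio was 3.93 in unmixed cells and 3.45 in HSCs, where it was at 59.1 and 646 CPM. Kupffer-marked cells had 13.5 and 81.6 CPM of Zbtb16, close to the levels of the C3 Mgp Igfbp6 cells, and the part of other cells' RNA in these levels was not tested. The metallothionein gene Mt2 was at 147 and 402 CPM (1.45, 1.25 to 1.66), against 0.51 in HSCs, and Mt1 at 441 and 896 CPM (1.02, 0.89 to 1.15). Fkbp5 was at 60.5 and 65.6 CPM (0.12, -0.32 to 0.54), although its level in HSCs was 64.1 and 256 CPM.

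Interferon-stimulated genes had a median log2 ratio of -0.32 over the 6 at level, against 0.86 in HSCs. Bst2, tetherin, was at 248 and 134 CPM (-0.89, -1.16 to -0.62) and had a ratio of 0.71 in HSCs. Ifi27l2a, the only one at least 2-fold lower, went from -1.13 to -0.27 without the mixed cells.

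Among genes of host defence, the log2 ratio was 0.60 (0.57 to 0.62) for Saa3, 1.05 (0.96 to 1.13) for Slpi and 1.06 (0.85 to 1.26) for Cfb. Of 8 complement genes at level, 5 were above 0 and only Cfb passed 2-fold. Of 10 mesothelial genes at level, 4 were above 0 and 6 below, none passed 2-fold, and the median was -0.15. Wt1 had a ratio of -0.46 (-0.60 to -0.32) and Upk3b of -0.04 (-0.29 to 0.20). Of the markers of the rule, which chose the cells, Igfbp6 had a ratio of -0.81, Nkain4 of -0.58, Dmkn of -0.84 and Fndc1 of -0.52, while C3 had 0.28 and Mgp 0.48.

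Among the 10 highest ratios by the naming rule, most rested on few cells. Ndufa4l2, a hypoxia-induced mitochondrial protein, was at 11.5 and 171 CPM (3.89, 3.31 to 4.52) in 15 and 12 cells. Rbfox1 was held by 6 cells of each genotype, Ctla2a by 9 and 6, and Grip1, Ephb1, Kcnab1 and Kcnd2 by at most 4 p16-Alb-LRTD cells. Of the p16-Alb-LRTD UMIs of Sprr2b, 99.1% lay in 1 cell, and of those of Pclaf, a replication gene, 74.3%. Ctla2a and Sprr2b have near-identical family members, so their counts may be shared between copies. With unmixed cells the 10 highest also included Alcam, an adhesion molecule, at 10.2 and 214 CPM in unmixed cells and held by 5 p16-Alb-LRTD cells.

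The 10 lowest ratios were also taken without the mixed cells, a choice made after the values were seen. Of these, 5 belonged to genes higher in the C3 Mgp Igfbp6 cells than in reference HSCs in both libraries. Among them were Adamts19, Spon2, Wt1os and C77080. A further reference was the 592 and 615 HSCs with at least 2 UMIs of both Alcam and Svep1. In that reference Spon2 was at 115 and 83.5 CPM, against 200 and 58.9 CPM in the cells. Wt1os was at 36.5 and 42.3 CPM there, against 154 and 43.7 CPM. Adamts19 and C77080 stayed higher in the cells in both libraries. Adamts19, a secreted metalloprotease, was at 71.6 and 10.5 CPM over all cells and had a ratio of -2.77 in unmixed ones, with UMIs in 39 and 10 cells. Spon2, a spondin of the matrix, was at 200 and 58.9 CPM, with ratios of -1.79 in unmixed cells and -0.95 in HSCs, and Rapgef2, an exchange factor of Rap GTPases, at 295 and 96.0 CPM, with -1.67 and 0.11. Tnfaip6, Bach2, Nckap5 and Ablim1 were also among the 10, with 81.4% of the p16-LRTD UMIs of Tnfaip6 in 1 cell.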

How the data were processed

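The deposited files hold raw UMI counts per gene and barcode, which the authors made from 10x Genomics 3' v3.1 libraries with Cell Ranger 7.0.1 and the mm10 genome, per the labels and the submitters' processing notes. There was 1 library per genotype, so no test was run. The stated filter of the study was applied (mitochondrial share of at most 5%, 2000 to 7000 genes, at most 50000 UMIs). No doublet caller was run, and cells with markers of other types were set apart instead. UMIs were summed per cell set and expressed as CPM. A gene was compared where it reached 50 CPM in either set, and 2-fold was the limit for a call. Ratios have exact conditional intervals, levels exact Poisson intervals and shares Clopper-Pearson intervals, and shares of cells with a UMI were compared after thinning each cell to 5000 UMIs. Of 31054 features, 30934 matched GENCODE M21 for coordinates.

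The text names the markers of the rule, up to 6 genes of each list by level, the 15 highest and 10 lowest genes against HSCs, and the 10 highest and 10 lowest genotype ratios whose interval did not reach 1. Mitochondrial, ribosomal, haemoglobin, hepatocyte and sex-linked marker genes were left out of the latter. The cells, marker lists and gene lists were chosen with earlier results of these data known. Scripts were tested on simulated data. Python 3.11.15, numpy 2.4.6, pandas 2.3.3, scipy 1.17.1 and matplotlib 3.10.9 were used, with edgeR 4.0.16 in R 4.3.3 for TMM factors only. Other scalings, filters and marker thresholds were tried as alternatives. A few genes are not reported here.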

Additional observations from a re-analysis of the deposited data

Results flagged for a closer look

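Among the genes of the lists that reached 50 CPM in both the C3 Mgp Igfbp6 cells and HSCs, there were 11 in which the genotype difference ran in opposite directions in these 2 cell sets, with both counting intervals off 0 and the ratios at least 2 log2 units apart. The difference between the cell sets was not tested, since there was 1 library per genotype. The log2 ratio of p16-Alb-LRTD over p16-LRTD was 0.96 for Col1a1 in the cells and -1.98 in HSCs, and 0.72 and -1.61 for Col3a1. It was 1.38 and -1.51 for Timp1, 1.10 and -2.01 for Acta2, and 1.60 and -1.06 for Dpt. Tagln had 2.57 and -0.52, with 90.5% of its p16-Alb-LRTD UMIs in 1 cell. Stmn1, a tubulin regulator of dividing cells, had 1.72 and -2.46. In unmixed cells the ratios of these genes kept their sign, at 0.93, 0.68, 1.14, 0.98, 1.40, 4.40 and 1.55 in the same order.

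The other 4 were genes of HSCs. Reln had -3.59 in the cells and 0.02 in HSCs, Lrat -2.93 and 0.21, Hgf -2.59 and 0.43, and Vipr1 -2.17 and 0.02. In unmixed cells these became 0.16, 0.11, 0.83 and 0.44. Over the 89 such list genes, 39 had opposite signs with both intervals off 0, of which 17 were higher in the C3 Mgp Igfbp6 cells of p16-Alb-LRTD and 22 lower.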

How the results depend on the processing

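Under 24 alternatives, 116 summary values stayed within their limits and 26 moved. These are shares and counts of genes, for which no reversal was defined. Those for unmixed cells, without the cell highest in Col1a1, for low Col1a1 and by number of mesothelial markers were chosen after seeing the data. The share of cells with mesothelial markers was 96.8% in both genotypes at 2 markers, 83.2% at 4 in p16-LRTD, 83.7% with 3 of 6 rule markers there, and 62.1% and 58.1% after thinning. The fibroblast share was 84.2% and 77.4% after thinning. The HSC-marker share was 77.9% and 77.4% at 2 markers, 22.1% and 16.1% at 4, and 16.8% and 0% after thinning. The share of C3 Mgp Igfbp6 cells in p16-Alb-LRTD was 0.663% without upper limits, and after thinning the shares were 0.781% and 0.270%. With a minimum of 20 CPM, 960 genes were higher than in HSCs, and 186 were higher and 312 lower in p16-Alb-LRTD. At 100 CPM these were 385, 41 and 47. Genes lower in p16-Alb-LRTD numbered 60 without cells with HSC markers, 67 in unmixed cells, and 67 when the cell highest in Col1a1 was also left out. The higher genes made up 44% of genotype calls, but 57.9% in unmixed cells, 60.5% without HSC-marked cells and 52.8% under TMM scaling. Signs were followed for a chosen set of single genes and lists only. Lrat, Hgf, Vipr1 and Rgs5 were not among them, though their ratios also turned in unmixed cells. Within the set, Reln reversed (0.23 without HSC-marked cells, 0.16 in unmixed cells, 0.11 without the cell highest in Col1a1). Reln was also at 1.38 with 5 or fewer and 0.53 with 10 or more mesothelial markers. The HSC list median reversed with 5 or fewer (0.53), and Timp1 (-0.030) and Dpt (-1.05) with 10 or more. Col1a1, short of 2-fold at 0.96, was at -0.20 with 10 or more. No paired analysis was possible because there was 1 library per genotype. Genotype differences cannot be told apart from library differences, and with 31 cells in p16-Alb-LRTD single cells set several values.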
